A study of Arabidopsis thaliana with 6 samples.

Results

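miR160 and miR167 are plant miRNA families that act on transcripts of auxin response factors (ARFs), the transcription factors that read out the hormone auxin. Their rows were taken from small RNA counts of Arabidopsis thaliana seedlings by family number, mature strands and star strands alike, where the star is the partner strand of the miRNA duplex. This gave 14 of the 679 rows that the authors counted, 6 of miR160 and 8 of miR167. The files name them ath-miR160a, ath-miR160C-star, ath-miR167a, ath-miR167d, ath-miR167d-star and so on, and the prefix for the species is left out from here. Rows with identical counts in all 6 libraries were counted once, which left 11 members, 4 of miR160 and 7 of miR167. miR160a stands for miR160a, miR160b and miR160C, and miR167a for miR167a and miR167b. The capital C is the spelling of the files for the loci annotated as MIR160c and MIR167c.

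All seedlings were Col-0, aged 10 days, and, per the labels, stood in water for a day before flg22 was given. The genotypes were WT, parg1-1, a mutant of an enzyme that removes poly(ADP-ribose) from proteins, and parp1parp2, a mutant of a pair of enzymes that add it. Each genotype was left untreated or given 100 nM flg22, a stretch of bacterial flagellin that sets off immune signalling in plants. Each of these 6 groups is 1 library, so single pairs of libraries carry no replicate check. The sources used here do not give the time with flg22, the number of seedlings pooled or the nature of the mutant alleles. The rows are miRNAs and hold no marker transcripts of a tissue, so the seedling label could not be checked, and nor could the genotypes. In whole seedlings, fewer cells with a miRNA and less of it per cell cannot be told apart.

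As background, miR160 pairs with the transcripts of ARF10, ARF16 and ARF17, which are known as repressors of auxin response, and miR167 with those of ARF6 and ARF8, which are known as activators. Silencing of ARF transcripts by these families is known from root, leaf, embryo and flower development. miR160 and miR167 have also been described among miRNAs that respond to flagellin or bacteria, beside miR393, which acts on auxin receptors.

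The mature sequences are shown because the families are defined by them and because miR167d, on which most of the differences turn, is nearly the same as miR167a. Each is written 5′ to 3′ as RNA, read from the TAIR10.1 RefSeq genome at the TAIR10 positions of the files, with the seed (bases 2 to 8) in capitals.
miR160a: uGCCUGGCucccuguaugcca
miR167a: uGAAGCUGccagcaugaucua
miR167d: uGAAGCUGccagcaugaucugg
miR167C: uAAGCUGCcagcaugaucuug
The 3 miR160 loci hold 1 and the same sequence, and so do the loci of miR167a and miR167b. miR167d shares its first 20 bases and its seed with miR167a. Counted from the 5′ end it differs by A21G (miR167a first) and has 22 bases where miR167a has 21. miR167C has another seed. It shares a run of 18 bases with miR167a, which starts at base 3 of miR167a and at base 2 of miR167C. A read that stops before the last bases fits miR167a and miR167d alike, and the rule that assigned such reads is unknown here. The counts of miR167d are therefore uncertain in this respect.

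The star strands differ between loci and so show which precursor was processed, which the shared mature sequences cannot. They are written in the same way.
miR160a-star: gCGUAUGAggagccaugcaua
miR160b-star: gCGUACAGaguagucaagcaug
miR160C-star: gCGUACAAggagucaagcaug
miR167a-star: gAUCAUGUucgcaguuucacc
miR167b-star: gGUCAUGCucugacagccucacu
miR167d-star: aGGUCAUCcugcagcuucagu
No pair of these has the same seed. miR160b-star and miR160C-star share the longest run among the star pairs compared, 11 bases.

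The loci lie apart in the genome. On TAIR10, miR160a is at chr2:16340282-16340302 on the plus strand in MIR160a (AT2G39175), miR160b at chr4:9888986-9889006 on the plus strand in MIR160b (AT4G17788) and miR160C at chr5:19009158-19009178 on the minus strand in MIR160c (AT5G46845). miR167a is at chr3:8108090-8108110 in MIR167a (AT3G22886) and miR167b at chr3:23406177-23406197 in MIR167b (AT3G63375), each on the plus strand. miR167C is at chr3:1306750-1306770 on the minus strand in MIR167c (AT3G04765), and miR167d at chr1:11137556-11137577 on the plus strand in MIR167d (AT1G31173). None of the 14 intervals overlaps an annotated protein-coding gene. The annotated MIR167d precursor is 377 bases long, against 138 for MIR167a and 85 for MIR160a. The interval named miR160C-star runs from 19009096 to 19009116, 1 base off the annotated miR160c-3p at 19009095 to 19009115. That of miR167C-star ends at 1306651, where the annotated miR167c-3p ends at 1306652. The intervals of miR160b-star, miR167b-star and miR167d-star overlap no annotated mature miRNA.

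Sites for these miRNAs were looked for in every mRNA of 27440 protein-coding genes, without gaps, with a cost of 1 for a mismatch and 0.5 for a G:U pair. For miR160a, 5 genes had a site at a cost of at most 4, and 3 of the 5 were ARFs. For miR167a there were 20 genes, 2 of them ARFs. The sites of these ARFs are shown as RNA, with bases that do not form a Watson-Crick pair with the miRNA in capitals, the first 3 for miR160a and the last 2 for miR167a.
ARF17: uggcauGcagggagccaggca
ARF10: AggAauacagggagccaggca
ARF16: GggUUuacagggagccaggca
ARF8: uagaucaGgcuggcagcuuGU
ARF6: GagaucaGgcuggcagcuuGU
All 5 sites are in coding sequence. ARF17, at chr1:29274189-29274209, has 1 G:U pair and 0 mismatches. ARF10 (chr2:12115741-12115761) costs 2.0 and ARF16 (chr4:14704141-14704161) 2.5, and their unpaired bases face the 3′ end of miR160a. ARF8 (chr5:14633841-14633861) costs 3.0 and ARF6 (chr1:10686478-10686498) 4.0 against miR167a. Against miR167d, with its other 3′ end, ARF8 costs 4.0 and ARF6 4.5, and against miR167C they cost 3.0 and 2.5. ARFs were found by their annotated synonyms, which gave 22 genes and need not cover the whole family. The next of these 22 cost 6.0 against miR160a and 6.0 against miR167a. A match of letters is a description of the transcript and shows neither cleavage nor binding.

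Total counts ran from 247508 to 408805 per library, and from 120015 to 188047 with identical rows counted once. The parg1-1 library with flg22 stood apart from the WT and parp1parp2 libraries. Compared over 141 distinct rows, its chi-square divided by the degrees of freedom was 80.7 and 87.4 against the WT libraries, 73.5 and 53.1 against the parp1parp2 libraries and 25.5 against untreated parg1-1. Pairs without it lay between 15.8 and 41.3. This measure uses unscaled counts, so it also grows with library depth. Several differences rest on parg1-1 with flg22. For miR160a and miR167d, additive fits without it are given for flg22 and for parg1-1 against each other genotype. The response term of parg1-1 cannot be fitted without it.

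miR167a was the most abundant member. It had between 3388 and 5199 counts per library and took rank 12 among the 338 distinct count patterns above 0. miR160a took rank 20 with 526 to 1284 counts, miR167d rank 27 with 197 to 917 and miR167C rank 55 with 58 to 101. The miR167 family, stars included, held between 2.34% and 4.33% of the distinct counts of a library and miR160 between 0.371% and 0.895%. For each family the lowest share was in parg1-1 with flg22 and the highest in untreated parp1parp2.

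Levels are given in scaled CPM, counts scaled to a common total with TMM factors. miR167a stood at 12468 scaled CPM in WT without flg22 and 12491 with it, at 11444 and 10468 in parg1-1, and at 15848 and 14018 in parp1parp2. The parp1parp2 libraries were the highest and the parg1-1 libraries the lowest, and the treated and untreated library of each genotype lay close together. For miR160a the WT libraries had 3163 and 3085 (again the untreated library first), those of parg1-1 2482 and 1625, and those of parp1parp2 3592 and 3592. Its genotypes had the same order as those of miR167a, and parg1-1 with flg22 was the lowest library. miR167d reached 1754 and 2203 in WT and 2109.8 and 2041 in parp1parp2, but 1553 and 609 in parg1-1. A single library, parg1-1 with flg22, was far below the other 5. miR167C had 309.9 and 243 in WT, 299 and 259.5 in parg1-1, and 199.9 and 267 in parp1parp2, so its lowest library was untreated parp1parp2 and it did not share the low of miR167d.

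**Figure D1:**
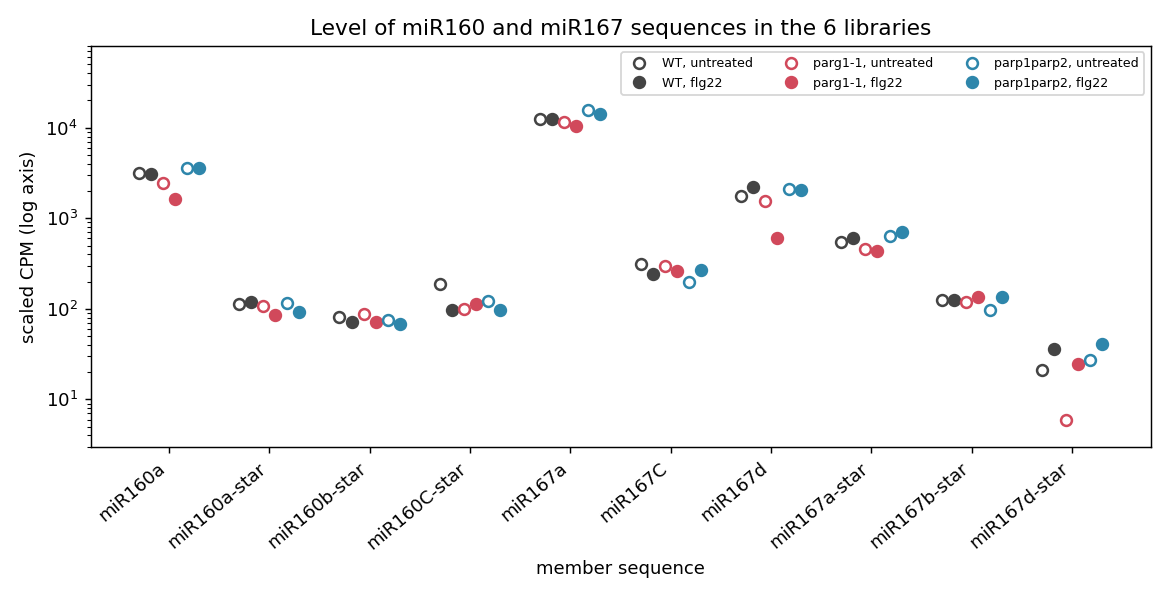
Scaled CPM (log axis) of the 10 members past the count filter in each library. Open points are untreated and filled points flg22 libraries, coloured by genotype. miR167d lies at 609 in parg1-1 with flg22 and between 1553 and 2203 in the other libraries, while miR167a lies between 10468 and 15848.

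miR167a, miR160a, miR167d, miR167a-star and miR167C kept this order in every library, highest first. Over libraries the ranges of miR160a and miR167d overlapped, and so did those of miR167d and miR167a-star (439 to 701 scaled CPM). Below miR167C, miR160C-star ranged from 96.1 to 187, miR167b-star from 96.5 to 136, miR160a-star from 86.5 to 118 and miR160b-star from 68.8 to 88.8. Each of these neighbours overlaps the next, so their order is not set. miR167d-star ranged from 5.92 to 40.5. miR167C-star had 0 to 2 counts, and its count of 0 in parp1parp2 with flg22 allows up to 3 counts, or 12.1 CPM. All members are 21 to 23 bases long, and how well each sequence enters a library was not measured.

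The first comparison asked whether flg22 moved these miRNAs. In WT, miR167d had 498 counts untreated and 917 with flg22, a log2 ratio of 0.33 (95% interval 0.17 to 0.49, counting error only). miR160a had 898 and 1284 counts, with a ratio of -0.04 (-0.16 to 0.09). miR167a had 3540 and 5199, with 0.0027 (-0.06 to 0.06). miR167d was thus the member with an interval above 0 in WT, and the intervals of the abundant miR160a and miR167a included 0. With identical rows counted once the ratios lie higher, 0.47 for miR167d, 0.10 for miR160a and 0.14 for miR167a. The interval of miR167a was then above 0, as it was with abundant families left out of the scaling (0.12), so that 2 of 10 members had one above 0. miR160C-star had 53 and 40 counts, a ratio of -0.96 (-1.59 to -0.34), and was the member with an interval below 0. Of all 187 tested rows in WT, 17.6% had an interval above 0 and 23.5% one below 0.

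In parg1-1, miR167d had 525 counts untreated and 197 with flg22, a log2 ratio of -1.35 (-1.60 to -1.11), or a ratio of 0.392. Counted as apart were ratios of 2-fold or more whose interval left out equality and whose larger count was 50 or more. miR167d was the only one of 10 members to be so in parg1-1, beside 1.07% of tested rows. Of the 187 ratios in this pair it took rank 12 from the lowest, and rank 6 of 141 with identical rows counted once. miR160a had 839 and 526 counts and a ratio of -0.61 (-0.77 to -0.45), at rank 30, or rank 20 of 141. miR167a had 3868 and 3388 counts and a ratio of -0.13 (-0.20 to -0.06). The intervals of these 3 members were below 0, as were those of 24.1% of tested rows, and 0 members had one above 0, beside 15% of rows. The other 7 members past the filter had intervals that included 0, miR167C with -0.20 (-0.64 to 0.23) among them.

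In parp1parp2 the flg22 and untreated libraries were close for these miRNAs. miR167d had 612 and 504 counts and a log2 ratio of -0.05 (-0.22 to 0.12), and miR160a had 1042 and 887 counts and -0.00022 (-0.13 to 0.13). miR167a had 4597 and 3462 counts and -0.18 (-0.24 to -0.11), the only member whose interval was below 0, beside 15.5% of rows, while 0 were above, beside 13.9%. No member (0 of 10) was 2-fold apart in WT or in parp1parp2, where 3.74% of tested rows were in each. Over the 10 members the median log2 ratio was -0.01 in WT, -0.17 in parg1-1 and -0.02 in parp1parp2, beside -0.13, -0.05 and 0.05 over all tested rows.

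**Figure D2:**
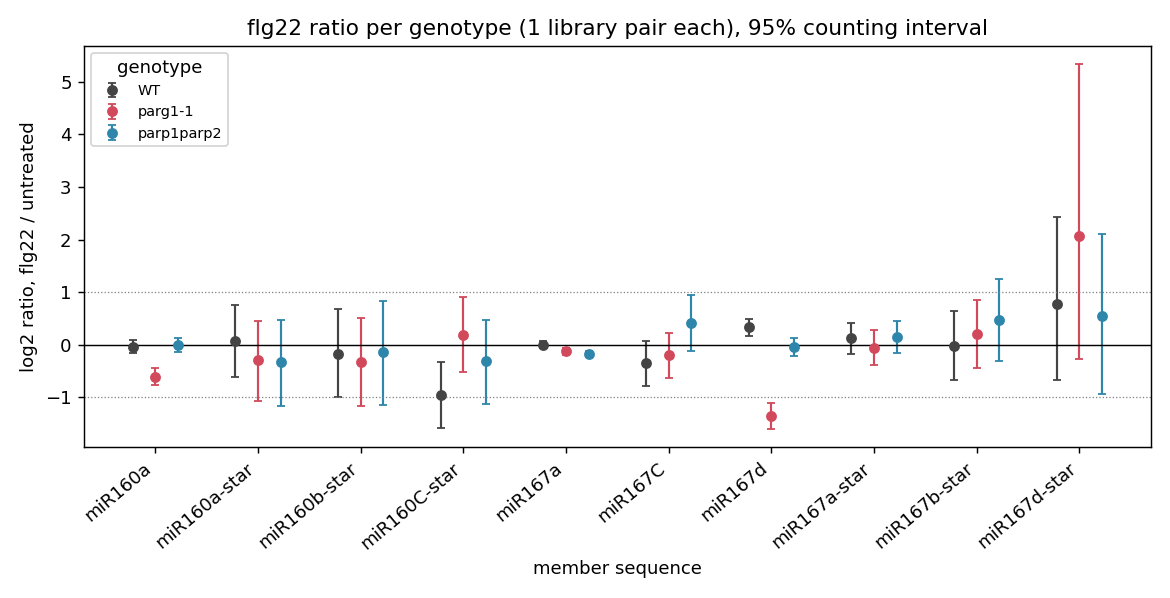
Log2 ratio of the flg22 to the untreated library for 10 members in each genotype. Each point is 1 pair of libraries, bars are exact 95% intervals for counting error, and dotted lines mark a 2-fold ratio. In parg1-1 miR167d lies at -1.35 and miR160a at -0.61, while their ratios in parp1parp2 are near 0.

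Fitted over the 3 genotypes, flg22 moved no member past the test. edgeR's additive model of genotype and treatment called 0 of 10 members (0% of 187 rows were called). It had 0 members at an unadjusted p under 0.05, beside 1 of 187 rows. DESeq2 also called 0, and had 0 at that unadjusted level, beside 0 and 1 of 187 rows. The log2 fold change was -0.34 ± 0.32 (SE) for miR167d, -0.21 ± 0.22 for miR160a and -0.10 ± 0.16 for miR167a (edgeR adjusted p = 0.996 for each). The first 2 values rest on parg1-1. Without its flg22 library they were 0.16 for miR167d and 0.0020 for miR160a, and without untreated parg1-1 that of miR167d was 0.14. The members ran from -0.37 to 0.95, and their median was -0.14 beside -0.05 over all rows. miR167d-star, with only 2 to 15 counts per library, had the highest flg22 pair ratio of the members in each genotype.

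The flg22 response of parg1-1 was also set against that of WT. For miR167d the log2 ratios differed by -1.68 (parg1-1 minus WT, interval -1.96 to -1.40, normal approximation to the counts). This was rank 9 from the lowest of 187 rows. miR167d and miR160C-star were the 2 of 10 members that differed by 2-fold or more with an interval without 0 and a count of 50 or more in some library, beside 4.81% of rows. With identical rows counted once miR160C-star was at 0.99 and no longer among them. For miR160a the difference was -0.58 (-0.77 to -0.38) and for miR167a -0.13 (-0.22 to -0.04). miR160C-star differed by 1.14 (0.25 to 2.04), where WT had counts of 53 and 40 and parg1-1 of 34 and 37. The response of parp1parp2 minus that of WT was -0.38 (-0.61 to -0.15) for miR167d, 0.04 (-0.14 to 0.21) for miR160a and -0.18 (-0.27 to -0.09) for miR167a, with 0 of 10 members 2-fold apart, beside 9.14% of rows. That of miR160a was below 0 under the 4 other scalings, down to -0.22 (-0.40 to -0.05) with identical rows counted once. For miR167C the difference was 0.77 (0.12 to 1.43), and its interval included 0 with identical rows counted once (-0.14 to 1.17) and with abundant families left out of the scaling (-0.01 to 1.30). The mutants share the WT libraries in these differences.

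A model with a term for the response of 1 mutant against that shared by the other genotypes leaves 1 residual degree of freedom. For parg1-1 the term was -1.49 ± 0.52 (SE) for miR167d, -0.59 ± 0.47 for miR160a and -0.04 ± 0.40 for miR167a. The adjusted p was 1 for each in edgeR. It called 0 of 10 members (0% of rows), with 1 at an unadjusted p under 0.05, beside 2 of 187 rows. By DESeq2 0 members were called and 1 had an unadjusted p under 0.05, beside 0 and 1 of 187 rows. Over the alternative settings the term of miR167d lay between -1.62 and -1.36. For parp1parp2 edgeR called 0 of 10 members, where 5.88% of rows were called. It had 0 members at an unadjusted p under 0.05, beside 22 of 187 rows. DESeq2 also called 0 and had 0 at that level, beside 2 and 7 of 187 rows. The terms there were 0.43 ± 0.42 for miR167d, 0.32 ± 0.41 for miR160a and -0.11 ± 0.37 for miR167a. Each term rests on the 2 libraries of its mutant.

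**Figure D3:**
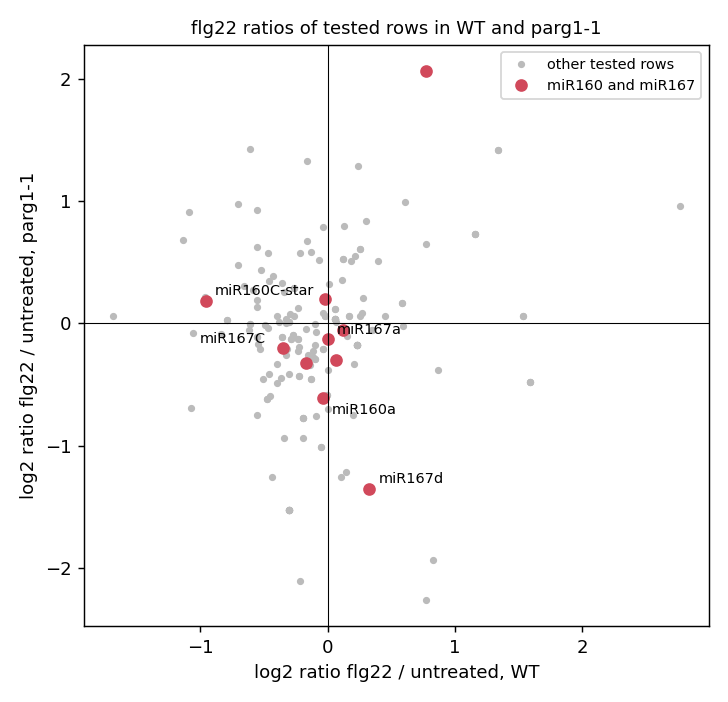
Log2 flg22 ratio in WT (horizontal) and parg1-1 (vertical) of tested rows, with miR160 and miR167 members in red. miR167d lies to the lower right, at 0.33 in WT and -1.35 in parg1-1, and miR167a near the crossing of the axes. The red point at the top, 2.06 in parg1-1, is miR167d-star, which rests on 2 to 15 counts.

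Shares within a library do not depend on how libraries are scaled, and these shares were chosen after the counts were seen. miR167d made up 12.1% of the mature miR167 counts in untreated WT (11.1 to 13.1, exact binomial 95% interval) and 14.7% with flg22 (13.9 to 15.7). In parg1-1 it made up 11.7% untreated (10.8 to 12.7) and 5.37% with flg22 (4.66 to 6.15). In parp1parp2 it made up 11.6% untreated (10.8 to 12.5) and 12.5% with flg22 (11.5 to 13.6). The untreated libraries of the 3 genotypes thus had overlapping intervals, while parg1-1 with flg22 lay below and WT with flg22 above them. miR167a filled most of the remainder, from 83.6% in WT with flg22 to 92.3% in parg1-1 with flg22. miR167C made up 2.13% and 1.62% in WT, 2.25% and 2.29% in parg1-1, and 1.10% and 1.64% in parp1parp2.

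miR160a was set against miR167 in the same way. It held 17.9% (16.8 to 19.0) of the mature counts of both families in untreated WT and 17.1% (16.3 to 18.0) with flg22. In parg1-1 it held 15.7% (14.8 to 16.7) untreated and 12.5% (11.6 to 13.6) with flg22, and in parp1parp2 16.5% (15.6 to 17.5) and 18.0% (17.0 to 19.1). The lowest share was again that of parg1-1 with flg22, and its interval overlapped none of the other 5.

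**Figure D4:**
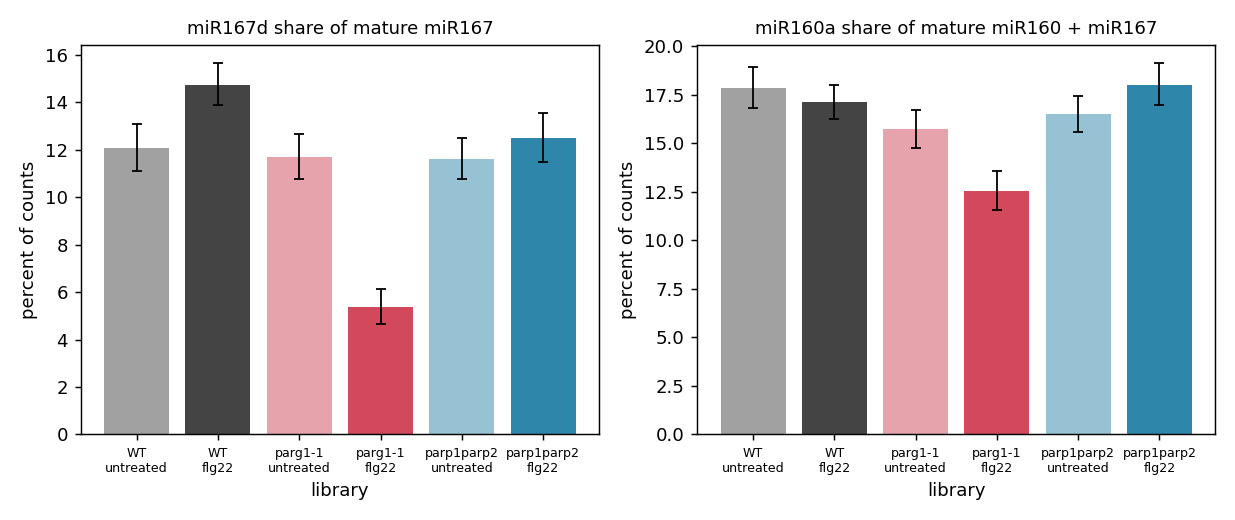
Percent of mature miR167 counts that were miR167d (left) and of mature miR160 and miR167 counts that were miR160a (right) in each library, with exact 95% binomial intervals. Pale bars are untreated. Parg1-1 with flg22 has the lowest bar in each panel, 5.37% and 12.5%.

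The second comparison asked whether the genotypes differed. Against WT, parg1-1 had less miR160a in each treatment, with log2 ratios of -0.35 untreated (-0.49 to -0.21) and -0.92 with flg22 (-1.07 to -0.78). For miR167d the ratios were -0.18 (-0.35 to 0.0045) and -1.86 (-2.09 to -1.63), so its difference lay in the flg22 libraries. miR167a had -0.12 (-0.19 to -0.06) and -0.25 (-0.32 to -0.19), but with DESeq2 size factors its untreated ratio was 0.0064, so that direction is not set. Untreated, 0 of 10 members were 2-fold apart, beside 4.81% of rows, and 3 had an interval below 0, beside 25.1%, the third being miR160C-star with -0.89 (-1.56 to -0.24). With flg22, miR167d was 2-fold apart, beside 9.63% of rows, and with identical rows counted once so was miR160a, at -1.04. There 4 members had an interval below 0, beside 34.2% of rows, the fourth being miR167a-star with -0.45 (-0.76 to -0.15). No member (0) had one above 0 in either treatment, beside 13.9% untreated and 19.8% with flg22.

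In the additive fit the log2 fold change of parg1-1 against WT was -0.96 ± 0.40 (SE) for miR167d, -0.63 ± 0.27 for miR160a and -0.19 ± 0.19 for miR167a (edgeR adjusted p = 0.217, 0.227 and 0.656). miR167d and miR160a were lower in 2 of 2 treatments, while the untreated direction of miR167a depended on the scaling. edgeR called 0 of 10 members, where 10.7% of rows were called, with 2 at an unadjusted p under 0.05, beside 39 of 187 rows. DESeq2 also called 0 and had 2 at that level, beside 12 and 24 of 187 rows. Without parg1-1 with flg22 the values were -0.18 for miR167d, -0.25 for miR160a and -0.08 for miR167a, and without WT with flg22 that of miR167a was -0.02. Without untreated parp1parp2, with 1 residual degree of freedom, the values were -1.001 for miR167d and -0.64 for miR160a. Fits without a library leave 1 library of a genotype, so their calls are not given here. Over all settings the value of miR167d lay between -1.77 and -0.18, and that of miR160a between -0.94 and -0.25.

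parp1parp2 had slightly more of the abundant members than WT in most pairs. miR167a had log2 ratios of 0.35 untreated (0.28 to 0.41) and 0.17 with flg22 (0.10 to 0.23), and miR160a 0.18 (0.05 to 0.31) and 0.22 (0.09 to 0.34). miR167d had 0.27 (0.09 to 0.44) untreated and -0.11 (-0.27 to 0.05) with flg22. miR167C had -0.63 (-1.14 to -0.14) untreated, from 88 and 58 counts, and 0.14 (-0.33 to 0.60) with flg22. No member (0) was 2-fold apart in either treatment, where 4.28% of rows were in each. Untreated, 3 members had an interval above 0 and 1 below, beside 23% of rows each way. With flg22, 2 had one above and 0 below, beside 19.3% and 21.9%. With identical rows counted once, the untreated ratios were 0.58 for miR167a, 0.42 for miR160a and 0.50 for miR167d.

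In the fit, the values of parp1parp2 against WT were 0.26 ± 0.19 (SE) for miR167a, 0.20 ± 0.27 for miR160a and 0.05 ± 0.38 for miR167d (edgeR adjusted p = 0.972 for each). edgeR called 0 of 10 members, where 0.535% of rows were called, with 0 at an unadjusted p under 0.05, beside 17 of 187 rows. By DESeq2 there were 0 calls and 0 at that level, beside 1 and 7 of 187 rows. Leaving out 1 library gave from -0.40 (without untreated WT) to 0.68 (without WT with flg22) for miR167d. For miR160a it gave from 0.08 to 0.41 with the same libraries left out, and for miR167a from 0.18 (without untreated WT) to 0.50 (without parp1parp2 with flg22).

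Set directly against parg1-1, parp1parp2 had higher values for the abundant members. The log2 fold change was 1.01 ± 0.39 (SE) for miR167d, 0.83 ± 0.28 for miR160a and 0.45 ± 0.19 for miR167a (edgeR adjusted p = 0.223, 0.143 and 0.275), each higher in 2 of 2 treatments. edgeR called 0 of 10 members, where 1.07% of rows were called, with 3 at an unadjusted p under 0.05, beside 29 of 187 rows. Other settings gave calls. DESeq2 called miR160a (0.80, adjusted p = 0.0287), where 10 of 187 rows were called. It had 3 members at an unadjusted p under 0.05, beside 22 of 187 rows. With identical rows counted once edgeR called miR160a (0.97) and miR167d (1.15), at adjusted p = 0.038 for each. In that setting 8 of 141 rows were called. For fits without a library, which leave 1 library of a genotype, values are given and calls are not. Without untreated parp1parp2 the values were 0.99 for miR160a and 1.24 for miR167d. Without parg1-1 with flg22 they were 0.57 for miR160a and 0.38 for miR167d. Over all settings miR167a lay between 0.37 and 0.60, miR160a between 0.57 and 1.14 and miR167d between 0.38 and 1.85, all of 1 sign.

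The star strands showed how much of each duplex was recovered as the partner strand. miR160a-star had 32 counts in untreated WT and 49 with flg22, and in the same way 36 and 28 in parg1-1 and 34 and 23 in parp1parp2. miR160b-star had between 17 and 30 counts and miR160C-star between 24 and 53. The 3 miR160 loci thus each gave star reads in every library, and untreated WT had the most miR160C-star, 49.1% (39.3 to 58.9) of the miR160 star counts, against 33.6% (25.2 to 42.8) in WT with flg22. In the other 4 libraries this share ran from 34% to 42.0%, each with an interval that overlapped both of these.

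In parg1-1 with flg22 mature miR160a was lowest, and these counts cannot tell whether its stars were lower in step. In parg1-1 the log2 flg22 ratio was -0.30 (-1.07 to 0.45) for miR160a-star and -0.32 (-1.17 to 0.51) for miR160b-star. It was 0.18 (-0.53 to 0.90) for miR160C-star, beside -0.61 (-0.77 to -0.45) for mature miR160a. The summed miR160 stars made up 10.6% (8.75 to 12.8) of miR160 in untreated parg1-1 and 14.3% (11.7 to 17.4) with flg22. They made up 10.7% (8.89 to 12.8) and 8.48% in WT, and 8.03% (6.52 to 9.77) and 6.73% (5.22 to 8.51) in parp1parp2. The share in parg1-1 with flg22 was the highest of the 6, and its interval overlapped those of the untreated parg1-1 and untreated WT libraries.

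For miR167d the star was rare. Its counts were 6 and 15 for WT, 2 and 8 for parg1-1, 8 and 10 for parp1parp2. Its share of mature plus star was 0.380% (0.046 to 1.36) in untreated parg1-1 and 3.90% (1.70 to 7.54) with flg22, and between 1.19% and 1.95% in the other 4 libraries. The parg1-1 pair thus had intervals that did not overlap, on 2 and 8 star counts. The flg22 ratio of miR167d-star in parg1-1 was 2.06 on the log2 scale (-0.26 to 5.34), so a change of the star itself was not detectable at this depth.

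miR167a-star, with 142 to 250 counts, made up between 3.83% and 4.76% of mature plus star, and all 6 intervals overlapped. miR167b-star made up between 0.605% and 1.28% of the shared mature count plus its own, although miR167a and miR167b have the same mature sequence. Over the 6 libraries the star of MIR167a had 1059 counts and that of MIR167b 233. The interval of miR167b-star overlaps no annotated mature miRNA, while that of miR167a-star does.

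**Figure D5:**
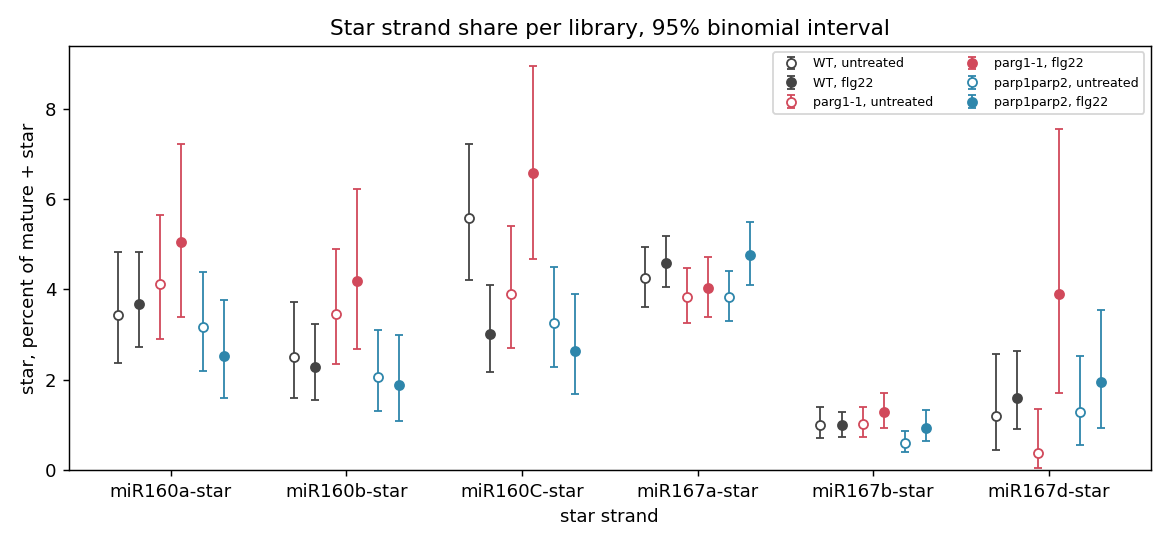
Star strand as percent of mature plus star in each library, with exact 95% binomial intervals. The mature counts of miR160a and miR167a are shared by their identical loci. miR167a-star stays between 3.83% and 4.76%, while miR167d-star rests on 2 to 15 counts.

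Levels over the 6 libraries were compared among members and with other families, as a description over libraries that share a scaling and, per the labels' protocols, a sequencing lane. Log2 levels of miR160a and miR167d had r = 0.954, those of miR160a and miR167a r = 0.872 and those of miR167a and miR167d r = 0.752. Each of these members was lowest in parg1-1 with flg22, and no r here was computed without that library. miR167C and miR167a had r = -0.615, which rests on 58 to 101 counts of miR167C per library. Untreated parp1parp2 was the lowest library of miR167C and the highest of miR167a. Of 60 sequences of other families that reached 50 counts in 3 or more libraries, those most like miR160a were miR394a (r = 0.959), miR161.2 (0.925) and miR824 (0.907). Those most like miR167d were miR163 (0.949), miR394a (0.87) and miR161.2 (0.864). miR163 had 5082 and 5106 scaled CPM in WT, 5293 and 3257 in parg1-1, and 5126 and 5264 in parp1parp2, and so was also lowest in parg1-1 with flg22.

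Other families that act on auxin signalling were set beside these. They were miR390, which triggers the trans-acting siRNAs that act on further ARFs, miR393, miR164, which acts on the transcription factor NAC1, and miR847, which acts on IAA28. In these, 9 distinct rows passed the filter, and edgeR called 0 of 9 in any of the 6 fits. Their median log2 fold change for flg22 was -0.09, beside -0.14 for the 10 miR160 and miR167 members and -0.05 over all rows. For parg1-1 against WT it was 0.04, beside -0.30 for the miR160 and miR167 members and 0.0084 over all rows. That median is over mature and star rows together. Mature miR393a (-0.86), miR164C (-0.52), miR390a (-0.46) and miR164a (-0.40) had negative values for parg1-1 against WT, as miR160a did, and mature miR847 (0.23) a positive one. The 4 star rows had values from 0.04 to 0.51. None of the 9 passed the test (0). The flg22 ratio of miR164a in parg1-1, from 585 and 374 counts, was -0.58 (-0.77 to -0.39), close to that of miR160a.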

How the data were processed

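The authors deposited whole-number read counts per miRNA row, 1 file per library. The build was TAIR10 and the tools were Bowtie 0.12.8 and bedtools, per the submitters' processing notes, which give no roles here. All 337 mature rows coincided with miRNAs of the TAIR10.1 annotation, so its sequence and genes were used. Of the 334 star rows, 54 did. Member loci with the same mature sequence had the same counts.

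The members and lists were chosen with earlier results of these data known. The named members are all of families 160 and 167, and fitted changes are printed for the 3 most abundant. Rows with 10 counts or more in 2 or more libraries (187 rows, or 141 with identical rows once) were tested in edgeR 4.0.16 (limma 3.58.1, R 4.3.3; glmQLFit, glmQLFTest, two-sided, TMM over these rows), adjusted by Benjamini-Hochberg over all of them, called under 0.05. This kept 10 of 11 members, and miR167C-star was left out. The additive model leaves 2 residual degrees of freedom, with a biological coefficient of variation of 22.8%. The deviations of libraries, and a response of 1 genotype, enter its residual alike. Whether libraries come from separate cultures is unstated. The p-values therefore measure only how these libraries spread, which can be technical. SE is the log2 fold change over the root of F. Pair ratios have exact conditional binomial intervals (scipy 1.17.1). Likeness uses Pearson's r of log2 scaled CPM with a prior count of 0.5. Alternatives were DESeq2 1.42.0 (size factors; test), library totals, other count filters, identical rows once, abundant families left out of the scaling, and each library left out. Reads were amplified by PCR with no molecular identifiers named, so intervals and the limit of 3 counts for a 0 cover counting error only.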

Additional observations from a re-analysis of the deposited data

Results flagged for a closer look

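The flg22 ratio of miR167d had opposite signs in WT and parg1-1. Its log2 ratio was 0.33 in WT and -1.35 in parg1-1, each with a counting interval away from 0, and the difference of parg1-1 minus WT was -1.68. With 1 library in each group this difference was not tested between them. The term for the response of parg1-1 against the other genotypes did not pass (edgeR adjusted p = 1). The parg1-1 library with flg22 also stood apart in its counts as a whole from the WT and parp1parp2 libraries, with a chi-square over degrees of freedom of 53.1 to 87.4. Against untreated parg1-1 it was 25.5, and pairs without this library had 15.8 to 41.3. This measure also grows with library depth. The part of parg1-1 with flg22 in the result was not tested.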

How the results depend on the processing

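For the 3 members with printed fitted changes, no fitted direction of the parg1-1 contrasts with WT and with parp1parp2 turned under any setting run. The untreated pair ratio of miR167a in parg1-1 to WT did turn, from -0.12 to 0.0064 with DESeq2 size factors. Calls are given only for fits with all libraries, since leaving 1 out leaves 1 library of a genotype. The count of members called was 0 in each main fit. With identical rows counted once it became 2 for parp1parp2 against parg1-1, beside 8 of 141 rows. With the DESeq2 test it became 1 there, beside 10 of 187 rows. In this contrast leaving out 1 library gave 0.57 to 1.14 for miR160a and 0.38 to 1.85 for miR167d. For parg1-1 against WT it gave -0.94 to -0.25 for miR160a and -1.77 to -0.18 for miR167d. The flg22 change turned sign without parg1-1 with flg22 for miR167d (0.16) and miR160a (0.0020), without untreated parg1-1 for miR167d (0.14) and without parp1parp2 with flg22 for miR167a (0.055). Leaving out 1 library gave flg22 changes from -0.33 to 0.0020 for miR160a, -0.18 to 0.055 for miR167a and -0.72 to 0.16 for miR167d. That of parp1parp2 against WT turned for miR167d without untreated WT (-0.40, in a range of -0.40 to 0.68). The response terms of miR167a turned for parg1-1 at a minimum of 50 counts (0.087) and for parp1parp2 without a filter (0.0037). The causes were not tested, but fits without a library have 1 residual degree of freedom. The models with a response term could not be fitted without a library, since no residual is left. Of the pair ratios, 268 stayed within their interval and 12 moved out of it. Over the same 187 rows, other scalings moved the median ratio of a pair by at most 0.13 on the log2 scale. Counting identical rows once moved the untreated ratio of miR167a in parp1parp2 to WT from 0.35 to 0.58. The 2-fold difference of miR167d in parg1-1 stood under each scaling, from -1.38 to -1.30 for flg22. Summing the stars of a family moved 7 of 12 star shares, since more strands enter. Stars with under 60 counts limit what can be seen there. No paired analysis was possible because every group has 1 library and so no replicate numbers to match, other than the comparison of treatments within genotypes that the additive model already makes.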
